A study of Mus musculus with 2 samples.

Results

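The genes described here were 33 genes of the extracellular matrix and of matrix remodelling, chosen by gene symbol from the 32285 features of a mouse single-cell RNA-seq count table. They comprised 5 fibrillar collagen genes, 3 collagen VI chains, 8 basement membrane genes, 7 glycoprotein and matricellular genes, 3 small leucine-rich proteoglycans, 2 matrix metalloproteinases, 3 metalloproteinase inhibitors and 2 crosslinking oxidases, and each symbol matched 1 feature. The tumours were subcutaneous allografts of J558, a mouse plasmacytoma line, in female BALB/c mice 4 weeks of age. One group received 0.5% methylcellulose orally (Vehicle) and the other received TAK-931, an inhibitor of the replication kinase CDC7, orally at 60 mg/kg once daily, both for 6 days. Each group was 1 library from 1 tumour that the investigators regarded as representative, so no value below has a replicate check, and treatment, tumour and library cannot be told apart. Intervals are 95% intervals that cover counting error only.

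Interstitial matrix is built from fibrillar collagens that fibroblasts secrete as procollagens, and small proteoglycans such as decorin regulate the width of the fibrils. Blood vessels lie on a basement membrane, a sheet of collagen IV and laminin networks joined by nidogen, which endothelial cells and mural cells make together. Metalloproteinases cut these networks, their tissue inhibitors limit the cutting, and lysyl oxidases crosslink collagen. Macrophages both degrade matrix and release matricellular proteins.

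In all 144767193 UMIs from 4565 barcodes were deposited for Vehicle and 77369283 UMIs from 6558 barcodes for TAK-931, with 8 barcode sequences found in both. A cell was kept where it had more than 2000 genes and less than 15% of its UMIs from mitochondrial genes, which left 3441 and 3488 cells with a median of 40504 and 15097 UMIs. A cell was placed in a gate by the share of 8 marker genes that it expressed, with at least 3 markers needed and no other list above 0.5 of the leading share; no matrix gene described here was a gate marker. Fibroblast-gated cells numbered 8 in Vehicle and 33 in TAK-931, mural-gated cells (the pericytes and smooth muscle cells around vessels) 3 and 6, endothelial-gated cells 76 and 155, and macrophage-gated cells 203 and 1924. J558-gated cells, the tumour cells themselves, were 87.1% of the kept Vehicle and 2.29% of the kept TAK-931 barcodes. Levels are given as CPM, the share of all UMIs summed over the cells of a gate that a gene took, scaled to the same total in every sum. The 4 check markers kept out of each gate's own list were found in both libraries, for example Pecam1 at 1371 and 1172 CPM in endothelial-gated cells, Acta2 at 4666 and 3722 CPM in mural-gated cells, Mfap5 at 892 and 1387 CPM in fibroblast-gated cells and Lyz2 at 4389 and 7729 CPM in macrophage-gated cells. The mural check markers Acta2 and Tagln were also found in fibroblast-gated cells, at 2207 and 102 CPM and at 2750 and 100.03 CPM, so they did not separate these gates in Vehicle. Cells that no gate took held 54.6% and 50.4% of the UMIs of the 33 genes. A broader set was therefore formed after the data were seen, called pooled mesenchymal cells, of every kept cell led by the fibroblast or the mural list; it held 40 Vehicle and 79 TAK-931 cells and 42.4% and 49.3% of the matrix UMIs. Ratios are log2 of TAK-931 over Vehicle CPM, and a gene is called counted where its mean level corresponds to at least 10 UMIs in the smaller sum. As transcripts were counted by 3' tags with no correction for length, levels are compared between cell types and libraries and not between genes.

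The matrix genes divided the stroma by cell type. Col1a1, a chain of the main fibrillar collagen, was at 10915 CPM in Vehicle and 19298 CPM in TAK-931 fibroblast-gated cells, at 7008 and 3039 CPM in mural-gated cells, at 1.43 and 5.03 CPM in endothelial-gated cells and at 3.88 and 14.3 CPM in macrophage-gated cells. T cells, which are not a collagen source, had 0 UMIs of Col1a1 in 13 Vehicle cells and 5.65 CPM in 568 TAK-931 cells, and whether these UMIs came from free RNA or from doublets was not tested. Col4a1, a chain of the basement membrane collagen, was at 5202 and 3349 CPM in endothelial-gated cells, 2394 and 2131 CPM in mural-gated cells and 52.2 and 216 CPM in fibroblast-gated cells. Igfbp7, a secreted vascular protein, was at 6054 and 3858 CPM in endothelial-gated cells and 5488 and 5811 CPM in mural-gated cells. Dcn and Lum, the fibril proteoglycans decorin and lumican, had 0 UMIs in the Vehicle endothelial and mural gates and at most 1 UMI in the TAK-931 ones. Bgn, the third proteoglycan, was at 5280 and 4327 CPM in fibroblast-gated and 2027 and 1266 CPM in mural-gated cells. Col1a1 and Bgn thus lay with fibroblast-gated and mural-gated cells, Dcn and Lum with fibroblast-gated cells, and Col4a1 and Igfbp7 were high in endothelial-gated and mural-gated cells.

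**Figure D1:**
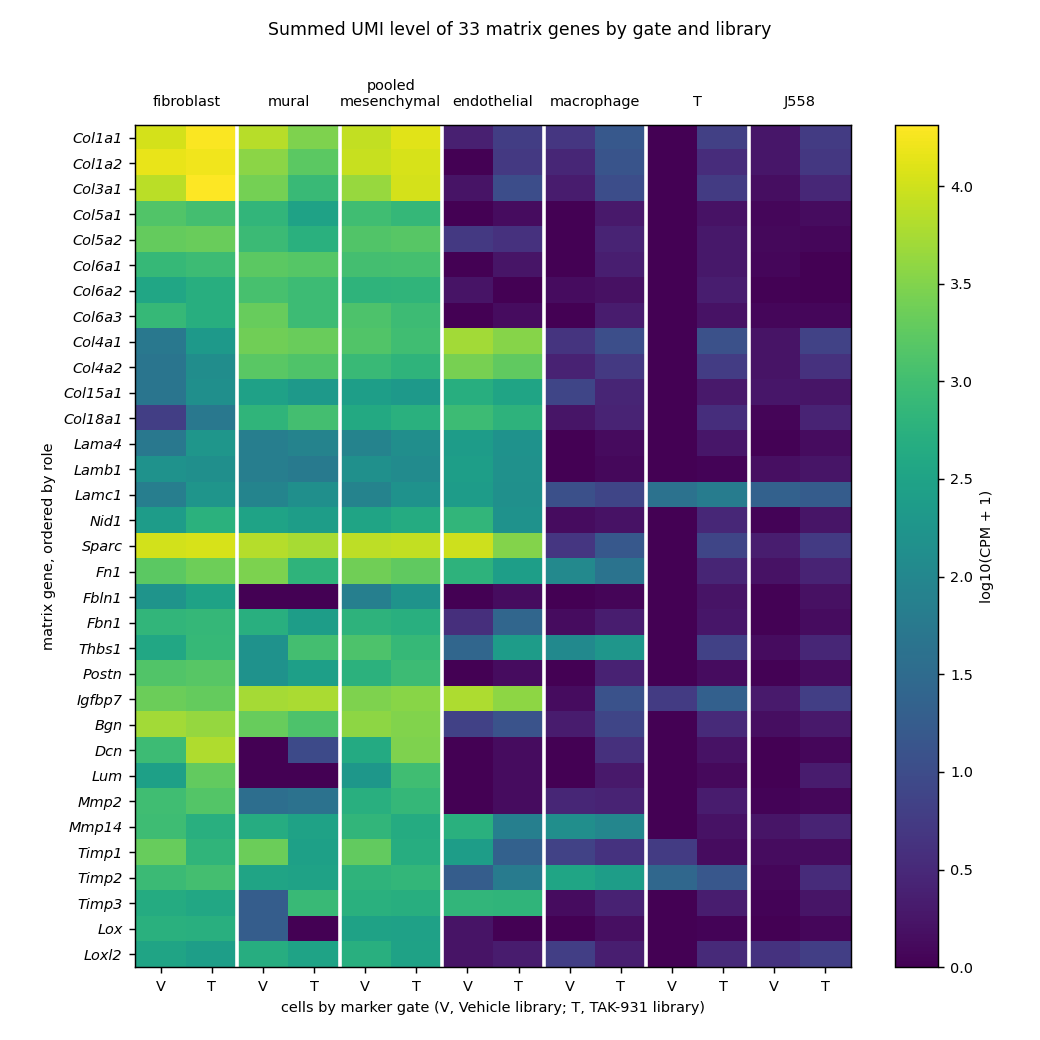
Heat map of the summed level, as log10(CPM + 1), of the 33 matrix genes in rows, ordered by role, in the Vehicle (V) and TAK-931 (T) cells of 7 sets in columns. Col1a1, Col1a2 and Col3a1 were brightest in fibroblast-gated cells, Col4a1 and Col4a2 in endothelial and mural cells, and Lamc1 was at 20.6 and 17.1 CPM in J558 cells.

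Over all kept cells, 30 of the 33 genes were at least 2-fold higher in TAK-931 and 0 at least 2-fold lower, against 36.2% and 18.7% of all 16181 counted genes. Their summed level was 973 CPM in Vehicle and 4525 CPM in TAK-931, a log2 ratio of 2.22 (interval 2.21 to 2.23), and the mean of each cell's own CPM gave 1.08. J558 cells, at 35.5 and 69.5 CPM of matrix transcripts, made up most Vehicle cells, and the part of that share in the whole-tumour ratio was not tested. Within gates the summed ratio was 0.54 in fibroblast-gated, -0.55 in mural-gated, -0.90 in endothelial-gated and -0.12 in macrophage-gated cells. Cells that no gate took, 122 in Vehicle and 633 in TAK-931, were not of 1 cell type, and the part of their make-up in their ratio was not tested. In them the summed ratio was -1.19 (-1.20 to -1.17), from 20650 and 9071 CPM. Of the 33 genes 22 were at least 2-fold lower there and 0 higher, against 10.2% and 11.0% of 11510 counted genes. Timp1, a secreted inhibitor of metalloproteinases, was one such gene. It was at 24.7 and 29.6 CPM over all kept cells, a ratio of 0.26 that became -1.11 as a mean of each cell's own CPM, and it was lower in TAK-931 in each of the 4 gates, at -1.64 in fibroblast-gated, -2.97 in mural-gated, -3.56 in endothelial-gated and -0.92 in macrophage-gated cells. Timp1, Lamc1 and Loxl2 were the 3 genes under 2-fold over all kept cells.

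**Figure D2:**
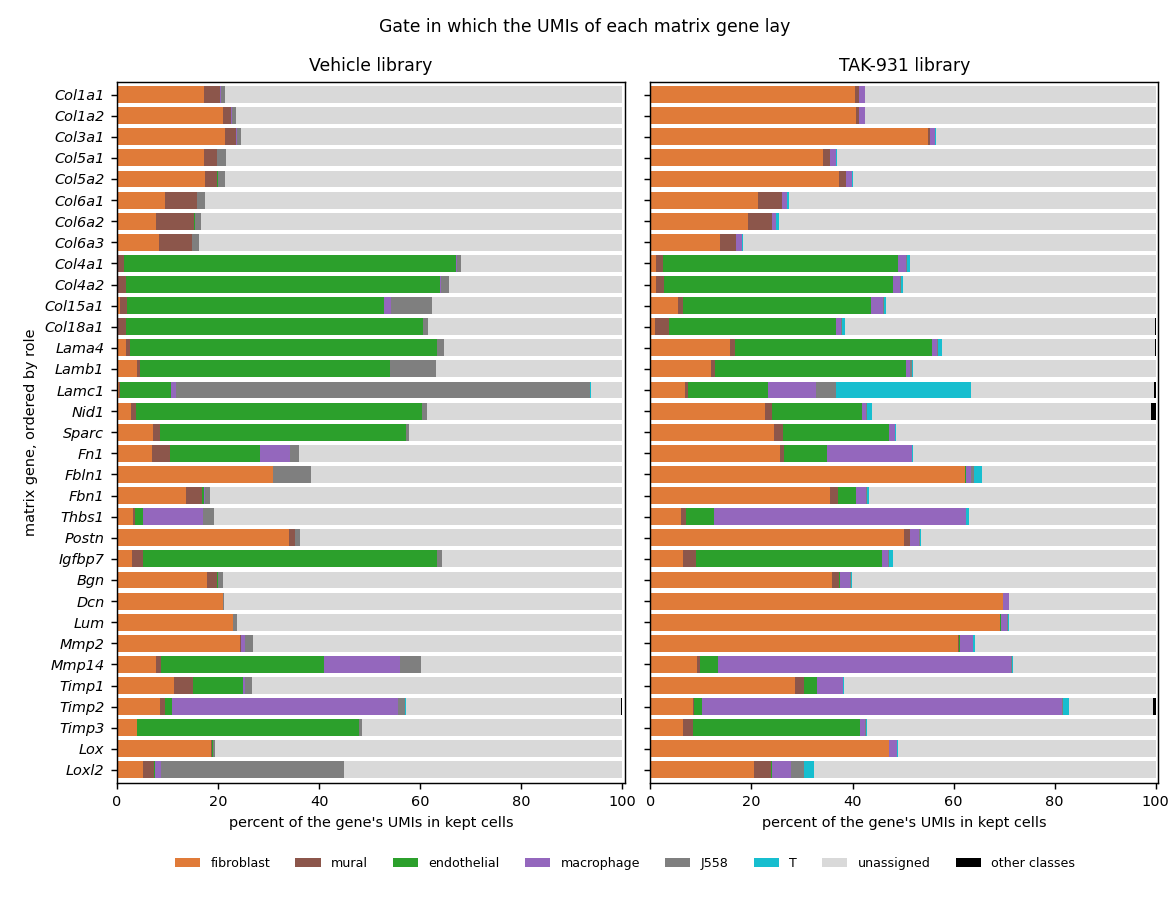
Stacked bars of the percent of each matrix gene's UMIs (horizontal axis) that lay in each gate, for the Vehicle library on the left and the TAK-931 library on the right. Endothelial-gated cells held 65.8% of Col4a1 UMIs in Vehicle and 46.5% in TAK-931, macrophage-gated cells held 44.7% and 71.4% of Timp2, and J558 cells held 81.9% of Lamc1 in Vehicle and 3.86% in TAK-931.

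In endothelial-gated cells Nid1, Sparc, Fn1, Mmp14 and Timp1 were at least 2-fold lower in TAK-931, and Thbs1, Fbn1, Timp2 and Bgn at least 2-fold higher. The 33 genes together were at 28524 CPM in Vehicle and 15308 CPM in TAK-931, a log2 ratio of -0.90 (interval -0.92 to -0.88). Per cell, matrix UMIs per 10000 UMIs ran from 121 through a median of 257 to 465 over the 76 Vehicle cells and from 63.5 through 146 to 313 over the 155 TAK-931 cells. The 2 ranges overlapped, but the TAK-931 upper quartile of 173 lay below the Vehicle lower quartile of 223. Of the 18 counted genes, 5 were at least 2-fold lower and 4 at least 2-fold higher, against 10.0% and 5.05% of 8650 counted genes. The median ratio was -0.64 over the counted matrix genes and -0.19 over all counted genes.

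The 5 genes past 2-fold on the lower side were Nid1, Sparc, Mmp14, Timp1 and Fn1. Nid1 encodes nidogen, which links laminin to collagen IV, and was at 688 CPM in Vehicle and 156 CPM in TAK-931, a log2 ratio of -2.14 (interval -2.32 to -1.98). Sparc, a collagen-binding glycoprotein, was at 9632 and 3322 CPM, a ratio of -1.54 (-1.58 to -1.50). Mmp14, a membrane-anchored collagenase that sprouting endothelium uses, was at 536 and 71.2 CPM, a ratio of -2.91 (-3.15 to -2.68). Timp1 was at 246 and 20.9 CPM, a ratio of -3.56 (-4.00 to -3.14). With the 76 and 155 cells each thinned to 4000 UMIs, which left out no cell, a UMI of Nid1 was found in 85.5% and 39.4% of cells, of Mmp14 in 84.2% and 24.5% and of Timp1 in 42.1% and 7.74%; without thinning the shares were 98.7% and 72.9%, 100% and 52.3%, and 84.2% and 25.8%. In T cells, which should lack Mmp14, 0.176% of thinned TAK-931 cells had a UMI of it, at a median depth of 13174 UMIs against 12787 UMIs in TAK-931 endothelial-gated cells. The richest single cell held 5.08% and 5.98% of the Mmp14 UMIs and 5.52% and 7.41% of the Timp1 UMIs, so neither level rested on a few cells. Nid1, Sparc, Mmp14 and Timp1 were at least 2-fold lower under all 17 alternatives tried for each, with ratios from -2.49 to -1.88, -1.84 to -1.27, -2.98 to -2.65 and -4.22 to -3.30. Among the 17 were minimums of 3 and 50 UMIs, which cannot change a ratio. In endothelial-gated barcodes outside the cell filter Sparc stood at -0.69.

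Fn1, fibronectin, was at 604 and 265 CPM, a ratio of -1.19 (-1.34 to -1.04), with 20.03% of the TAK-931 UMIs in 1 cell. It turned round in the 19 Vehicle and 32 TAK-931 cells with no UMI of a macrophage gate marker, a subset chosen after the data were seen, where the ratio was 0.24, while Nid1, Sparc and Mmp14 stood there at -2.49, -1.84 and -2.98 and Timp1 within its range above. The structural genes of the basement membrane were lower by less than 2-fold. Col4a1 was at 5202 and 3349 CPM, a ratio of -0.64 (-0.68 to -0.59), and its partner chain Col4a2 was at 2643 and 1835 CPM, a ratio of -0.53 (-0.59 to -0.46). Col15a1 and Col18a1, the collagens of the outer face of the membrane, stood at -0.59 and -0.60, and the laminin chains Lama4, Lamb1 and Lamc1 at -0.64, -0.80 and -0.76. Igfbp7 stood at -0.65. Timp3, the inhibitor that binds to matrix, was at 691 and 676 CPM, a ratio of -0.03 (-0.14 to 0.08). The counted collagen and laminin genes of the list thus lay between -0.80 and -0.53 in kept cells, Nid1 and Sparc lay below it, and Timp1 and Timp3 of the same inhibitor family lay more than 3 log2 units apart.

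**Figure D3:**
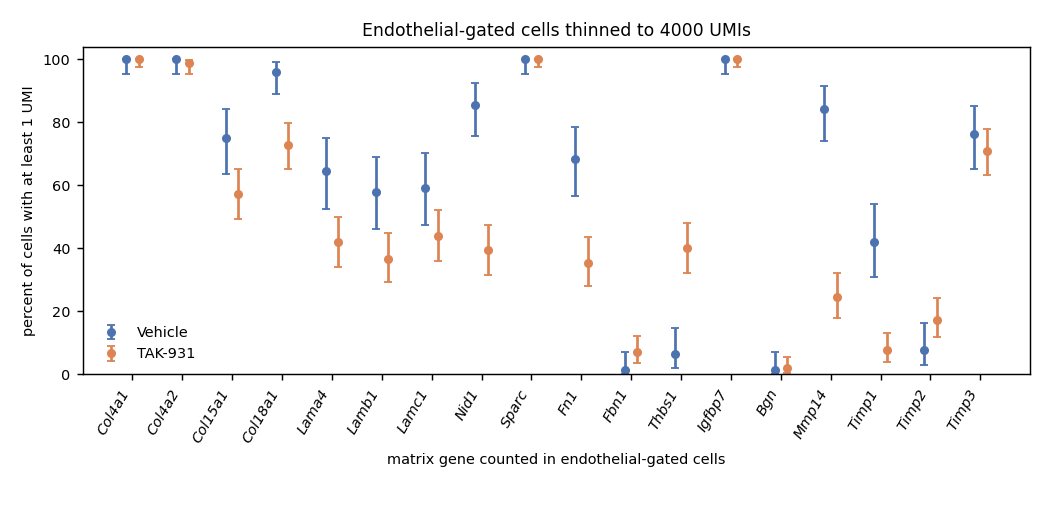
Percent of endothelial-gated cells with at least 1 UMI (vertical axis) of each counted matrix gene after every cell was thinned to 4000 UMIs; points are 76 Vehicle and 155 TAK-931 cells and bars are exact binomial 95% intervals. Nid1, Fn1, Mmp14 and Timp1 were found in fewer TAK-931 cells and Thbs1 in more, with intervals apart, as they also were for Col18a1, Lama4 and Lamb1, while Timp3 was found in 76.3% and 71.0%.

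Thbs1, thrombospondin-1, a matricellular inhibitor of angiogenesis, went the other way in endothelial-gated cells. It had 36 UMIs in Vehicle and 630 in TAK-931, or 25.8 and 244 CPM, a ratio of 3.24 (2.76 to 3.77), and a UMI in 6.58% and 40% of thinned cells (17.1% and 69.0% unthinned). In T cells of the TAK-931 library 0.880% of thinned cells had a Thbs1 UMI. Thbs1 lies on chromosome 2 from 118111876 to 118127133 of GRCm38. The ratio fell to 0.61 where cells with markers of a second class were kept in the gate and to 1.17 where cells were gated after thinning. Timp2, an inhibitor that also takes part in activating pro-MMP2, was at 17.9 and 61.5 CPM, a ratio of 1.78 (1.17 to 2.45), and at 0.47 with second-class cells kept. Fbn1, fibrillin-1, had 4 and 65 UMIs, a ratio of 3.13 (1.71 to 5.05), and Bgn, biglycan, had 8 and 30 UMIs, a ratio of 1.02 (-0.14 to 2.35) with 36.7% of the TAK-931 UMIs in 1 cell. Both Fbn1 and Bgn turned negative, at -1.30 and -2.14, with second-class cells kept. The other 15 genes, among them the fibrillar collagens, the collagen VI chains, Dcn, Lum, Postn, Mmp2, Lox and Loxl2, had at most 24 UMIs in either library and were not counted.

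Markers of other cell types differed between libraries in endothelial-gated cells, whose own list summed to 5905 and 4301 CPM. The fibroblast list summed to 5.73 and 15.9 CPM, with 5 and 3 of its 8 markers at 0. The neutrophil list summed to 13.6 and 85.1 CPM with 5 and 4 of 8 at 0, of which Hdc gave 7.88 and 82.0 CPM. The T cell list summed to 12.2 and 24.8 CPM with 5 and 1 of 8 at 0, the NK list to 0.716 and 4.26 CPM and the B cell list to 1.43 and 5.80 CPM. The macrophage list summed to 335 and 147 CPM with 3 and 0 of its 8 markers at 0, and its markers did not move together: C1qa was at 1.43 and 26.7 CPM, and the check marker Lyz2, outside the sum, at 0.716 and 73.1 CPM. The mural list summed to 949 and 25.5 CPM, and nearly all of it was Kcnj8 (561 and 7.35 CPM) and Abcc9 (384 and 8.12 CPM), the 2 subunits of a potassium channel, while the mural markers Rgs5, Notch3 and Myh11 were at 2.87 and 3.48, 0 and 1.16, and 0 and 0 CPM. The J558 list summed to 362 and 181 CPM with 2 and 1 of 8 markers at 0, of which Xbp1 gave 249 and 95.9 CPM, and the dendritic list to 326 and 203 CPM with 5 and 3 of 8 at 0, of which Fscn1 gave 297 and 168 CPM. Of 8 dissociation stress genes 2 were at least 2-fold higher and 0 lower, and Hspa1a was at 688 and 2785 CPM. The part of these differences in the matrix ratios was not tested. Of 15 genes that help to make collagen, 13 were counted and 6 were at least 2-fold lower with 0 higher, and the list's median was -0.95 beside -0.19 over all counted genes, of which 10.0% were lower and 5.05% higher by that measure. The collagen chaperone Serpinh1 was at 1141 and 417 CPM (-1.45), the lysyl hydroxylase Plod1 at 279 and 102 CPM (-1.45) and the procollagen proteinase Bmp1 at 141 and 55.7 CPM (-1.34). Of 9 tip cell genes, which mark sprouting vessels, 4 were lower and 1 higher against the same shares: Kcne3 was at 196 and 5.80 CPM (-5.07) and Esm1 at 138 and 24.8 CPM (-2.48), while Pgf was at 28.7 and 152 CPM (2.41). Of 6 venule and adhesion genes, 3 were higher and 0 lower against the same shares, with the leukocyte receptor Vcam1 at 31.5 and 411 CPM (3.71). Further genes past 2-fold were the proteoglycan-cutting protease Adamts5 at 202 and 10.8 CPM (-4.22), the oxidase Loxl4 at 34.4 and 2.32 CPM (-3.89), the elastin gene Eln with 1 and 43 UMIs (4.54, interval 1.98 to 9.87), the chemokine Cxcl12 at 43.0 and 581 CPM (3.76) and the protease Ctss at 4.30 and 30.9 CPM (2.85).

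Mmp14 and Timp1 encode a protease and an inhibitor, and their ratios were the lowest of the 18 genes counted in endothelial-gated cells. The 250 bases before their RefSeq starts (build GRCm38.p6, plus strand for both) were taken from chr14:54431348-54431597 and chrX:20869916-20870165. Neither window overlaps an annotated exon, and the Timp1 window lies in an intron of Syn1. Capitals mark every match, on either strand, to GGGCGG, the core of an Sp1 box; TATAAA and TGANTCA, the letters of a TATA box and of an AP-1 site, were also searched on both strands and have no match in either window.
Mmp14: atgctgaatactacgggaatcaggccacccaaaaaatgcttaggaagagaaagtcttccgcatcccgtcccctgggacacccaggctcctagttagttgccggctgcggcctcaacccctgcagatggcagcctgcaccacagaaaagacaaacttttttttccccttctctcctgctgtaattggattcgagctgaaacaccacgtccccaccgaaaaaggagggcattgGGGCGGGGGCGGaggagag
Timp1: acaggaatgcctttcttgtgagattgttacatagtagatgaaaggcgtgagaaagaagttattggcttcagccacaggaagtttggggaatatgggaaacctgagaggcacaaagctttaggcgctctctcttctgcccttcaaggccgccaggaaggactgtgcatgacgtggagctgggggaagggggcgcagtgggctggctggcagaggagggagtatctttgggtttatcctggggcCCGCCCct
Mmp14 has 2 matches to GGGCGG, at 19 and 13 bases before the start, and Timp1 has 1, at 8 bases before the start. Of 32851 windows of that length, 32.7% hold GGGCGG, 12.4% TATAAA and 6.75% TGANTCA. Of the 33 matrix genes 22 had a window, of which 4 had 2, and of these 26 windows 16 hold GGGCGG, 2 TATAAA and 1 TGANTCA. Col4a1 and Col4a2 face away from each other on chromosome 8: the GENCODE model of Col4a1 ends at 11312826 on the minus strand and that of Col4a2 starts at 11312805 on the plus strand, so the starts of the 2 chains overlap. Their UMI ratio in endothelial-gated cells was 1.97 (interval 1.89 to 2.05) in Vehicle and 1.82 (1.76 to 1.89) in TAK-931.

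In mesenchymal cells most matrix genes differed by less than 2-fold between the libraries, and Dcn, Lum, Col3a1 and Timp1 differed by more. Over pooled mesenchymal cells the 33 genes were at 55872 and 70201 CPM, a ratio of 0.33 (0.32 to 0.34), and all 33 were counted. Of these 4 were at least 2-fold higher and 1 lower, against 9.72% and 6.89% of 7900 counted genes, and the median ratio was 0.08 beside -0.08 over all counted genes, so the shares of called genes were near the background. Dcn was at 438 and 3012 CPM, a ratio of 2.78 (2.64 to 2.92), and Lum at 189 and 973 CPM, a ratio of 2.36 (2.15 to 2.58). Col3a1, the collagen of loose and healing tissue, was at 4447 and 11013 CPM, a ratio of 1.31 (1.26 to 1.35). Fbln1, fibulin-1, had 75 and 356 UMIs, a ratio of 1.16 (0.80 to 1.54). Timp1 was at 1903 and 485 CPM, a ratio of -1.97 (-2.08 to -1.87). Markers of the cells also differed within the pool: the fibroblast list summed to 1790 and 3043 CPM, with Clec3b at 0 and 471 CPM and Dpt at 10.6 and 373 CPM, the mural list to 2243 and 2329 CPM, with the check marker Acta2 at 5135 and 1367 CPM, and the macrophage list to 121 and 267 CPM, with Lyz2 at 29.8 and 255 CPM. The J558 list summed to 617 and 402 CPM, the dendritic list to 59.6 and 103 CPM, the NK list to 0 and 31.3 CPM and the neutrophil list to 1.92 and 17.2 CPM. The T cell list summed to 114 and 105 CPM and the endothelial list to 64.4 and 49.9 CPM. At 0 were 1 and 0 markers of the fibroblast list, 0 and 0 of the mural list, 2 and 0 of the macrophage list and 1 and 0 of the J558 list. Of the dendritic list 6 and 1 were at 0, of the NK list 8 and 3 and of the neutrophil list 6 and 2. The part of these lists in the matrix ratios was not tested. Dcn, Lum, Col3a1, Fbln1 and Timp1 stayed past 2-fold under the 8 alternatives tried for the pooled cells. The richest cell held 19.96% of the Vehicle and 6.09% of the TAK-931 UMIs of Dcn, and 30.5% and 8.63% of those of Lum.

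Col1a1 was at 8310 and 13096 CPM in pooled mesenchymal cells, a ratio of 0.66 (0.62 to 0.69), and Col1a2, the second chain of the same trimer, was at 9065 and 11396 CPM, a ratio of 0.33 (0.30 to 0.36). The 2 chains did not keep 1 proportion: the UMI ratio of Col1a1 to Col1a2 was 0.92 (0.89 to 0.94) in Vehicle and 1.15 (1.13 to 1.17) in TAK-931. The ratio of Col3a1 to Col1a1 was 0.54 (0.52 to 0.55) and 0.84 (0.83 to 0.86). That of Dcn to Bgn, the 2 related proteoglycans, was 0.11 (0.10 to 0.13) and 0.94 (0.91 to 0.98). By contrast Col6a1 to Col6a2 stood at 1.68 (1.52 to 1.85) and 1.64 (1.54 to 1.75), and Col6a1, Col6a2 and Col6a3 at log2 ratios of 0.04, 0.08 and -0.49. The minor fibrillar chains Col5a1 and Col5a2 stood at -0.38 and 0.18. Among the basement membrane genes Col4a1 stood at -0.50, Col4a2 at -0.41 and Col15a1 at -0.35, and Col18a1, Lama4, Lamc1 and Nid1 at 0.37, 0.70, 0.89 and 0.50. Sparc was at 7668 and 8133 CPM, a ratio of 0.08 (0.05 to 0.12), where endothelial-gated cells had -1.54. Fn1 stood at -0.39, Fbn1 at -0.18, Postn (periostin) at 0.59, Igfbp7 at 0.22, Bgn at -0.27, Mmp2 at 0.52, Mmp14 at -0.59, Timp2 at 0.15, Timp3 at -0.11, Lox at -0.06 and Loxl2 at -0.77. Thbs1 was at 1286 and 789 CPM, a ratio of -0.71 (-0.81 to -0.60), opposite in sign to its ratio in endothelial-gated cells.

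The window before the start of Col3a1 (GRCm38.p6, plus strand, chr1:45311288-45311537) is shown because Col3a1 was the only one of the 5 fibrillar collagen genes past 2-fold on the higher side in mesenchymal cells; it overlaps no annotated exon, and capitals mark its 1 match to TATAAA, at 117 bases before the start, with none to GGGCGG or TGANTCA.
Col3a1: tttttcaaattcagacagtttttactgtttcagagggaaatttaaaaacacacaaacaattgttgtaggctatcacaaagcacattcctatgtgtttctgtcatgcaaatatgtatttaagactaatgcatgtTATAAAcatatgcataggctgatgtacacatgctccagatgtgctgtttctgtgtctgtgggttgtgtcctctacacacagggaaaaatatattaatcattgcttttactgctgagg

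**Figure D4:**
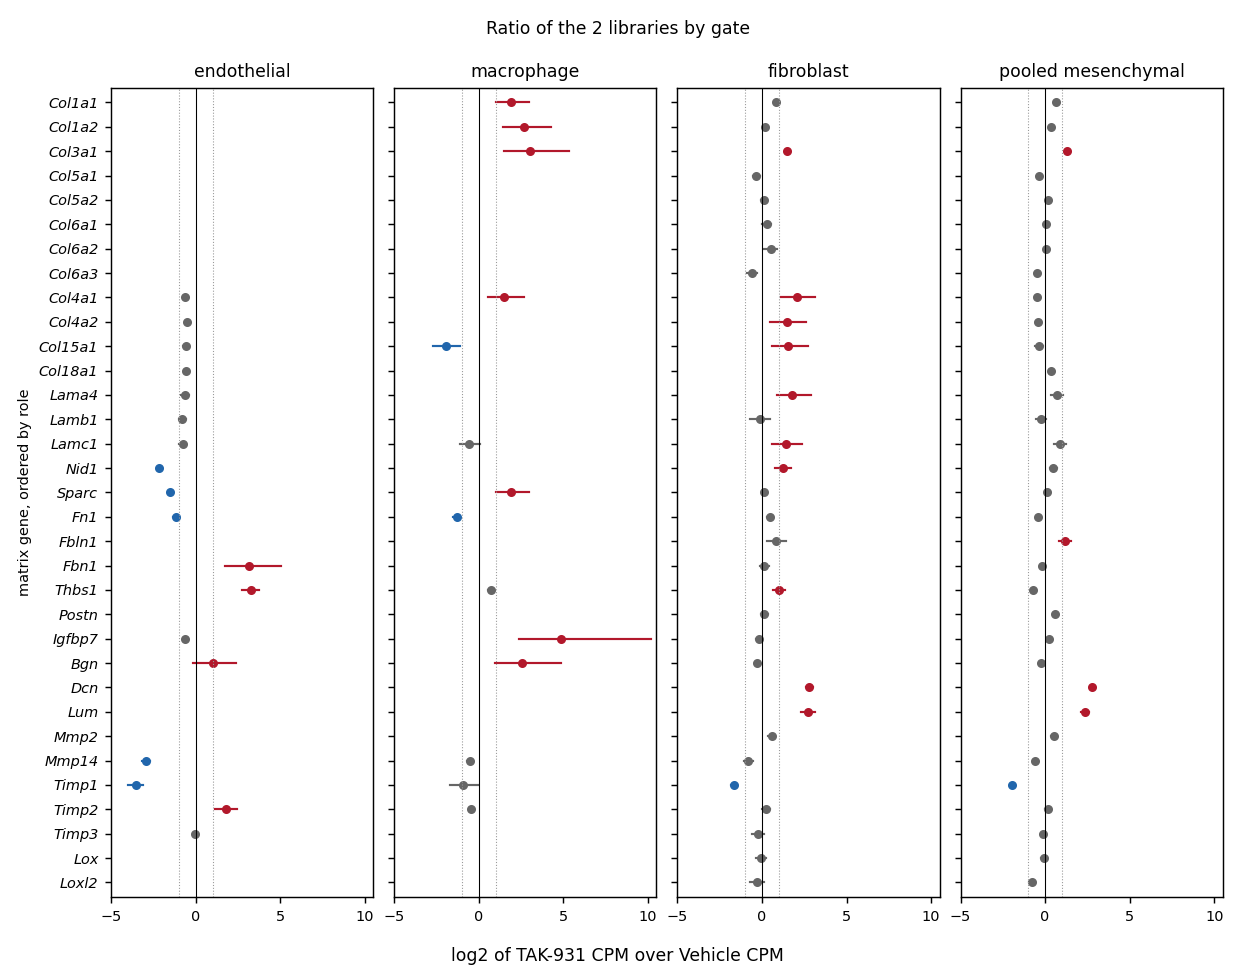
TAK-931 CPM over Vehicle CPM as log2 (horizontal axis) for each counted matrix gene in 4 sets of cells; bars are 95% counting intervals, dotted lines mark 2-fold, red is at least 2-fold higher and blue at least 2-fold lower. Nid1, Sparc, Fn1, Mmp14 and Timp1 stood on the lower side in endothelial cells, and Dcn, Lum and Col3a1 on the higher side in fibroblast-gated and pooled mesenchymal cells.

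The 8 Vehicle and 33 TAK-931 fibroblast-gated cells gave 32 counted genes, of which 10 were at least 2-fold higher and 1 lower, against 11.1% and 15.3% of 2593 counted genes. Per cell, matrix UMIs per 10000 UMIs ran from 463 through a median of 637 to 1148 in Vehicle and from 266 through 954 to 1863 in TAK-931, so the groups overlapped. Dcn was at 892 and 6206 CPM, a ratio of 2.80 (2.58 to 3.03), Lum at 282 and 1862 CPM, a ratio of 2.72 (2.33 to 3.14), and Col3a1 at 7409 and 20589 CPM, a ratio of 1.47 (1.40 to 1.55), all near their values in the pooled cells. Timp1 was at 2066 and 662 CPM, a ratio of -1.64 (-1.83 to -1.45), with 56.1% of the Vehicle UMIs in 1 cell. The other 7 genes past 2-fold, Col4a1 (2.05), Lama4 (1.79), Col15a1 (1.57), Col4a2 (1.46), Lamc1 (1.41), Nid1 (1.23) and Thbs1 (1.01), had 9 to 74 UMIs in Vehicle. Of these Col4a1, Col4a2, Col15a1 and Thbs1 had the opposite sign in the pooled cells, and Thbs1 stood at -2.18 under a stricter limit on markers of a second class, which left 1 Vehicle and 10 TAK-931 cells. Col1a1 stood at 0.82, Col1a2 at 0.19 and Sparc at 0.13; the remaining counted genes ran from -0.80 for Mmp14 to 0.84 for Fbln1. Col18a1, with 1 and 47 UMIs, was not counted. The gate's own fibroblast list summed to 2103 and 4992 CPM with 1 and 0 of 8 markers at 0, among them Clec3b at 0 and 998 CPM and Dpt at 57.4 and 770 CPM. The T cell list summed to 10.4 and 107 CPM with 6 and 2 of 8 at 0, of which Cd3e gave 5.22 and 94.4 CPM, and the dendritic list to 73.0 and 118 CPM with 7 and 4 at 0. The macrophage list summed to 261 and 203 CPM in these cells with 5 and 1 of 8 markers at 0, and the J558 list to 365 and 230 CPM with 3 and 1 of 8 at 0. Of 8 dissociation stress genes 2 were at least 2-fold higher and 0 lower both here and in the pooled cells, with Fos at 1127 and 2949 CPM here and 1026 and 2626 CPM in the pool, and the part of these genes and lists in the matrix ratios was not tested.

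Among the genes around the list, myofibroblast and inflammatory fibroblast genes held several of the largest ratios in mesenchymal cells. Of 7 myofibroblast genes 6 were at least 2-fold lower and 0 higher in fibroblast-gated cells, with a median of -3.58 beside -0.28 over all counted genes, of which 15.3% were lower and 11.1% higher. In pooled mesenchymal cells 5 of the 7 were lower and 1 higher, against 6.89% and 9.72% of all counted genes. Tagln, an actin-binding protein of contractile cells, was at 2750 and 100.03 CPM (-4.78) in fibroblast-gated cells and 3773 and 1296 CPM (-1.54) in pooled cells. Of 8 inflammatory fibroblast genes 4 were higher and 0 lower in fibroblast-gated cells and 7 higher and 1 lower in pooled cells, against the same shares. In mural-gated cells, where 12.4% of all counted genes were higher and 11.4% lower, 2 of 5 counted myofibroblast genes were lower and 0 higher. Of the 8 inflammatory genes 2 were counted there, of which 1 was lower, and Cxcl9, not counted, had 0 and 25 UMIs. The complement gene C3 was at 57.4 and 1477 CPM (4.69) and the chemokine Cxcl9 had 1 and 772 UMIs (7.38, interval 4.90 to 12.7) in fibroblast-gated cells. Of 27 other matrix genes, 10 of 23 counted were higher and 5 lower there, against 11.1% and 15.3%. Tnxb, tenascin-X, had 0 UMIs in Vehicle and 419 in TAK-931, or 30.1-fold higher when the Vehicle sum was set to a floor of 3 counts. Its counting interval ran from 4.61 upwards on the log2 scale. Col14a1, a fibril-associated collagen, was at 41.7 and 902 CPM (4.43). On the lower side were Spp1, osteopontin, at 9052 and 185 CPM (-5.61), the collagenase Mmp13 at 7310 and 163 CPM (-5.49) and the mitosis gene Birc5 with 33 and 1 UMIs (-7.26, interval -12.6 to -4.68). None of 15 collagen synthesis genes was at least 2-fold higher and 1 was lower in fibroblast-gated cells, and 0 passed 2-fold in either direction in pooled cells.

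Mural-gated cells were 3 in Vehicle and 6 in TAK-931, with 2680 and 3834 matrix UMIs, and 1 cell held 83.0% of the TAK-931 UMIs of Col1a1. Of 25 counted genes 2 were at least 2-fold higher and 8 lower, against 12.4% and 11.4% of 806 counted genes. Timp3 was at 17.5 CPM from 1 UMI and at 841 CPM, a ratio of 5.59 (3.08 to 10.9), and Thbs1 had 9 and 129 UMIs, a ratio of 2.77 (1.80 to 3.93). Fn1 was at 2901 and 633 CPM, a ratio of -2.20 (-2.61 to -1.80), and Timp1 at 2220 and 283 CPM, a ratio of -2.97 (-3.56 to -2.42). Col1a1 (-1.21), Col1a2 (-1.08), Col3a1 (-1.63), Col5a1 (-1.15), Col6a3 (-1.21) and Fbn1 (-1.07) were the other 6. Of the basement membrane genes Col18a1 was at 664 and 1057 CPM (0.67, interval 0.14 to 1.23) and Col15a1 at 297 and 216.5 CPM (-0.46, interval -1.39 to 0.52), with Col4a1 at 2394 and 2131 CPM (-0.17, interval -0.47 to 0.14) and Col4a2 at 1590 and 1340 CPM (-0.25, interval -0.63 to 0.14). Thbs1, Col1a1, Col1a2 and Col3a1 changed sign with second-class cells kept, when the gate held 25 and 32 cells. The gate's own mural list summed to 4649 and 7202 CPM, the J558 list to 769 and 491 CPM with 4 of 8 markers at 0 in both, and the T cell list to 279.6 and 125 CPM with 7 of 8 at 0 in both. The fibroblast list summed to 1730 and 566 CPM in the mural gate with 5 and 4 of its 8 markers at 0, and the macrophage list to 52.4 and 283 CPM with 5 and 2 of 8 at 0, beside 0 and 1207 CPM of the check marker Lyz2. Of 8 dissociation stress genes 5 were higher and 0 lower, among them Hspa1b with 4 and 190 UMIs (4.50), Hspa1a with 15 and 176 UMIs (2.48), Dnajb1 with 4 and 41 UMIs (2.29) and Fos with 27 and 229 UMIs (2.01), and the part of these genes and lists in the matrix ratios was not tested. Of the other matrix genes, Spp1 had 233 and 5 UMIs (-6.61), Fbln2 75 and 22 (-2.84), Ecm1 56 and 31 (-1.92) and Mgp 126 and 71 (-1.90).

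Macrophage-gated cells carried little of the list, 739 CPM in Vehicle and 680 CPM in TAK-931, a ratio of -0.12 (-0.19 to -0.05), and most of it came from 4 genes. Timp2 was at 337 and 247 CPM, a ratio of -0.45 (-0.55 to -0.34), Mmp14 at 136 and 93.7 CPM, a ratio of -0.54 (-0.70 to -0.37), Thbs1 at 109 and 181 CPM, a ratio of 0.73 (0.56 to 0.91), and Fn1 at 107 and 42.9 CPM, a ratio of -1.32 (-1.51 to -1.13). All 4 lay far above their level in TAK-931 T cells, where 31.5% of thinned macrophage-gated cells but 5.11% of T cells had a Timp2 UMI and 27.6% but 0.176% had an Mmp14 UMI (54.2% and 15.8%, and 59.4% and 1.06%, unthinned; median depth 14761 and 13174 UMIs). The gate held 203 and 1924 cells and 15.1% and 58.0% of all Mmp14 UMIs, while endothelial-gated cells held 32.1% and 3.57% of them. It held 12.0% and 49.9% of the Thbs1 UMIs.

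The 4 genes were divided by C1q, the complement component of mature tissue macrophages. Cells with at least 2 of the 3 C1q genes numbered 129 in Vehicle and 1475 in TAK-931, and cells with fewer numbered 74 and 449. Timp2 was at 438 and 292 CPM in the C1q-rich cells (-0.59) and 33.9 and 29.7 CPM in the others (-0.19). Fn1 was at 32.6 and 32.4 CPM in the C1q-rich cells, a ratio of -0.01 (-0.38 to 0.38), and at 328 and 94.4 CPM in the others, a ratio of -1.80 (-2.03 to -1.56). The lower Fn1 level of the whole gate thus lay in the C1q-poor cells, which were 74 of 203 cells of the gate in Vehicle and 449 of 1924 in TAK-931. Thbs1 was at 34.7 and 106 CPM in the C1q-rich cells, a ratio of 1.61 (1.26 to 1.98). It was at 330 and 547 CPM in the others, a ratio of 0.73 (0.53 to 0.94). Its summed level was thus higher in TAK-931 in both sets of kept cells. Over the whole gate a Thbs1 UMI was found in 20.7% of thinned Vehicle and 20.2% of thinned TAK-931 cells. At that depth the share of cells with Thbs1 was therefore not higher in TAK-931. The ratio of the gate ran from 0.35 to 1.61 under the alternatives tried for it. In the 111 Vehicle and 1109 TAK-931 macrophage-gated barcodes outside the cell filter the direction was the opposite, with Thbs1 at 358 and 70.1 CPM, a ratio of -2.35 (-2.70 to -2.01). Mmp14 stood at -0.55 and -0.58.

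Of the 14 counted genes in macrophage-gated cells 7 were at least 2-fold higher and 2 lower, against 4.40% and 6.92% of 8930 counted genes. The 7 were Col1a1, Col1a2, Col3a1, Col4a1, Sparc, Igfbp7 and Bgn, each with 1 to 10 UMIs in Vehicle and at 6.82 to 14.6 CPM in TAK-931. A gene is counted by the mean of its levels in the libraries, so these 7 were counted mainly through TAK-931, which favours a call on the higher side. In the 568 TAK-931 T cells Col4a1 was at 10.8 and Igfbp7 at 20.2 CPM, at or above the macrophage level, and Col1a1 was at 5.65, Col1a2 at 2.52, Col3a1 at 4.54, Sparc at 7.07 and Bgn at 2.32 CPM, below it, and a Col1a1 UMI was in 4.73% of thinned TAK-931 macrophage-gated and 2.11% of thinned T cells. Subtraction of an estimated 2.68% and 3.99% of free RNA left too little to compare. It took to 0 both sums of Col1a2, Col3a1, Sparc and Igfbp7, the TAK-931 sums of Col1a1 and Col4a1, and the Vehicle sum of Bgn. Each such sum was set to the floor of 3 counts, so the 7 ratios then obtained depended on that floor. Lists of other cell types were higher in TAK-931 macrophage-gated cells too: the endothelial list summed to 10.9 and 28.7 CPM, the T cell list to 3.88 and 27.7 CPM, the NK list to 19.8 and 49.1 CPM, the dendritic list to 10.9 and 25.3 CPM, the neutrophil list to 59.3 and 90.8 CPM, the fibroblast list to 5.04 and 7.20 CPM and the mural list to 3.49 and 5.28 CPM. Of the 8 markers of each list 3 to 6 were at 0 in Vehicle and 0 in TAK-931. The J558 list, with 0 markers at 0 in either library, summed to 190.0 and 154 CPM and the B cell list to 23.7 and 14.4 CPM with 6 and 2 at 0, and the part of these lists in the matrix ratios was not tested. Fn1 and Col15a1 were the 2 on the lower side, the latter with 18 and 58 UMIs, a ratio of -1.94 (-2.72 to -1.09). Timp1 was at 6.20 and 3.27 CPM (-0.92) and Lamc1 at 10.47 and 7.10 CPM (-0.56). Among related genes, Mmp13 was at 70.6 and 9.27 CPM (-2.93), Vcam1 at 678 and 171 CPM (-1.98), the scavenger and thrombospondin receptor Cd36 at 23.3 and 76.8 CPM (1.72), the chemokines Ccl7 and Ccl2 at 57.0 and 341 CPM (2.58) and at 103.5 and 445 CPM (2.10), and the oxidase Loxl3 had 5 and 353 UMIs (2.52). Of 8 cell cycle genes 5 were lower and 0 higher, with Top2a at 72.9 and 17.6 CPM (-2.05) and Mki67 at 81.8 and 20.2 CPM (-2.02).

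Lamc1, the laminin gamma chain, was also found in tumour cells and lymphocytes. J558 cells had it at 20.6 and 17.1 CPM, a ratio of -0.27 (-0.59 to 0.03), and held 81.9% of its Vehicle UMIs. T cells had it at 40.6 CPM from 9 UMIs in Vehicle and at 63.8 CPM from 632 UMIs in TAK-931, against 7.10 CPM in TAK-931 macrophage-gated cells. In the TAK-931 library a Lamc1 UMI was found in 20.6% of thinned T cells and 2.44% of thinned macrophage-gated cells (50% and 9.88% unthinned). J558 cells also held 36.2% of the Vehicle UMIs of Loxl2, a lysyl oxidase, at 3.32 and 5.25 CPM.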

How the data were processed

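Counts of unique molecular identifiers (UMIs) per gene and barcode were used as deposited. The authors made them from 10x Genomics Single Cell 3' v3.1 libraries of dissociated tumours, and the submitters' processing notes name Cell Ranger 6.0.0 and mm10; whether free RNA or doublets were removed is not given in the sources used here. Each library was 1 tumour, so no test between groups was made and no p-value is given. Cells that passed the filters (more than 2000 genes, less than 15% of UMIs mitochondrial) were gated by 10 lists of 8 markers (at least 3 detected, second list at most 0.5 of the first); this limit was the only treatment of doublets. UMIs were summed per gate and library, scaled to a common total as CPM, and compared as a log2 ratio with an exact conditional binomial 95% interval. A gene was counted where the mean of its CPM values corresponded to at least 10 UMIs in the smaller sum, was called at 2-fold, and a sum of 0 was set against a floor of 3 counts. For shares of cells with a UMI, each cell was thinned to 4000 UMIs, with exact Clopper-Pearson intervals. The first 600 Vehicle J558 cells in deposited order were used for this. Scripts ran in Python 3.11.15 with pandas 2.3.3, scipy 1.17.1, numpy 2.4.6 and matplotlib 3.10.9. The ratio and its interval were checked on simulated counts.

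All 33 genes were described by role. From 12 lists of related genes, up to 4 counted genes with the highest and 4 with the lowest ratio past 2-fold were named per gate; Serpinh1, Plod1, Bmp1, Pgf and the pooled Tagln values were added after the values were seen. The members, gates and lists were chosen with earlier results of these data known. Alternatives changed the cell filters, gate rules, depth at gating, averaging, scaling, free RNA and single rich cells. Gene positions came from GENCODE vM21 (GRCm38) and promoter windows from RefSeq, which matched 22 of the 33 genes.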

Additional observations from a re-analysis of the deposited data

Results flagged for a closer look

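Among the matrix genes, 7 passed 2-fold in opposite directions in different gates. The share of all counted genes that did so was not computed, so this count has no background to be read against. The difference between gates was not tested, since each gate had 1 library per group. Nid1 stood at a log2 ratio of TAK-931 over Vehicle of 1.23 in fibroblast-gated and -2.14 in endothelial-gated cells. Sparc stood at 1.91 in macrophage-gated and -1.54 in endothelial-gated cells. Fbn1 stood at 3.13 in endothelial-gated and -1.07 in mural-gated cells. Col15a1 stood at 1.57 in fibroblast-gated and -1.94 in macrophage-gated cells. Col1a1 stood at 1.89 and Col1a2 at 2.66 in macrophage-gated cells, against -1.21 and -1.08 in mural-gated cells. Col3a1 stood at 1.47 in fibroblast-gated, 3.03 (counting interval 1.47 to 5.31) in macrophage-gated and -1.63 in mural-gated cells. The macrophage values of Col1a1, Col1a2, Col3a1 and Sparc rested on 3 to 10 Vehicle UMIs. These values turned negative with free RNA subtracted, but sums were then at the floor of 3 counts. Both sums of Col1a2, Col3a1 and Sparc and the TAK-931 sum of Col1a1 were at that floor. The negative signs depended on the floor and so cannot show a lower level in TAK-931. The mural values of Col1a1, Col1a2 and Col3a1 turned positive, and the endothelial value of Fbn1 turned to -1.30, where cells with markers of a second class were kept.

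Barcodes outside the filter on genes and mitochondrial UMIs, 1124 in Vehicle and 3070 in TAK-931, also carried matrix transcripts. Their summed level was 1005 CPM in Vehicle and 3254 CPM in TAK-931, a log2 ratio of 1.69.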

How the results depend on the processing

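No paired analysis was possible because each group was 1 library. Each group being 1 tumour, replicates could not be left out, and the cause of the shifts below was not tested. The alternatives that leave Xbp1 and Prdm1 out of the J558 list, pool mesenchymal cells, or take endothelial-gated cells without macrophage marker UMIs were chosen after seeing the data. Of 1868 ratios of single genes under alternatives, 1474 stayed inside the counting interval of the reported value, 369 moved outside it, and 25 of genes past 2-fold changed sign. Of the 1474, 89 and 58 came from minimums of 3 and 50 UMIs, which change the genes counted and cannot change a ratio. Of the 25, 7 came from subtraction of free RNA, where a sum of 0 had been set to the floor of 3 counts. Mural-gated cells gave no value under the stricter limit on a second list, which left 0 cells, and fibroblast-gated values under that limit rest on 1 Vehicle and 10 TAK-931 cells.

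The summed log2 ratio of the 33 genes over all kept cells (2.22) was 2.18 and 2.17 under the 2 looser gene minimums, 2.19 with a mitochondrial limit of 10%, 2.23 without one, 1.08 as a mean of each cell's CPM and 2.06 when scaled by the median ratio of all genes. In fibroblast-gated cells (0.54) it was 0.34 without the limit on a second list, 0.47 under the stricter limit, 0.21 gated after thinning, 0.60 with the shorter J558 list, 0.43 as a mean over cells, 0.87 scaled, 0.57 with free RNA subtracted and 0.73 without the richest cells. In mural-gated cells (-0.55) it was -0.63 without a mitochondrial limit, -0.10 without the limit on a second list, -0.66 as a mean over cells, -0.18 scaled and -0.43 without the richest cells. In endothelial-gated cells (-0.90) it was -0.92 under the loosest gene minimum, -0.98 without and -0.84 under the stricter limit on a second list, -0.96 gated after thinning and -0.63 scaled. In macrophage-gated cells (-0.12) it was 0.07 without the limit on a second list, 0.22 gated after thinning, -0.19 as a mean over cells, -0.01 scaled and -0.35 with free RNA subtracted. In pooled mesenchymal cells (0.33) it was 0.29 with a mitochondrial limit of 10%, 0.31 without one, 0.28 as a mean over cells, 0.56 scaled, 0.39 with free RNA subtracted and 0.40 without the richest cells.

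The count of genes past 2-fold in fibroblast-gated cells (11) was 6 under the stricter limit on a second list, 7 with the shorter J558 list and 6 with at least 50 UMIs. In mural-gated cells (10) it was 6 without the limit and 6 with at least 50 UMIs. In endothelial-gated cells (9) it was 19 without the limit and 16 gated after thinning. In macrophage-gated cells (9) it was 4 under the stricter limit and 1 with at least 50 UMIs. The difference in the share of kept cells, TAK-931 minus Vehicle, was 0.258 percentage points for fibroblast-gated cells under the stricter limit. For endothelial-gated cells (2.24) it was 1.24 with a mitochondrial limit of 10%, 3.43 without the limit on a second list and 1.05 under the stricter one. For macrophage-gated cells (49.3) it was 42.3 and 41.7 under the looser gene minimums, 53.9 without the limit on a second list and 32.4 under the stricter one.

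Genes that changed sign were, in fibroblast-gated cells, Thbs1 at -0.06 without the limit on a second list, -2.18 under the stricter limit, -0.70 gated after thinning and -0.07 with the shorter J558 list, and after thinning also Col4a1 at -0.10 and Col4a2 at -0.91. In mural-gated cells without the limit Col1a1 stood at 0.10, Col1a2 at 0.16, Col3a1 at 0.83 and Thbs1 at -1.14, and after thinning Col3a1 at 0.08 and Thbs1 at -0.75. In endothelial-gated cells Fbn1 stood at -1.30 and Bgn at -2.14 without the limit, at -0.29 and -2.61 after thinning, and Fn1 at 0.24 in cells without macrophage marker UMIs. In macrophage-gated cells Col1a2 stood at -0.13 without the limit, and with free RNA subtracted Col1a1 stood at -3.97, Col4a1 at -3.84, Bgn at -0.34, and Col1a2, Col3a1, Sparc and Igfbp7 each at -3.60. The value of -3.60 has both sums at the floor of 3 counts and gives only the ratio of the gate totals. Col1a1 and Col4a1 had their TAK-931 sums and Bgn its Vehicle sum at that floor, so these signs with free RNA subtracted depended on it.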

Other observations

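Barcodes outside the filter that the endothelial list led, 13 in Vehicle and 157 in TAK-931, gave a second view of the vessel genes in the same libraries. Their matrix genes summed to 20061 CPM in Vehicle and 12832 CPM in TAK-931, a log2 ratio of -0.64. Thbs1 was at 27.7 CPM from 1 UMI and at 287 CPM, a ratio of 3.37 (counting interval 0.88 to 8.69). Nid1 stood at -1.84, Mmp14 at -2.40 and Fn1 at -1.96. Sparc stood at -0.69, nearer 0 than in kept cells, and Igfbp7 at 0.35, where kept cells had -0.65. Lama4 (-1.51), Lamc1 (-1.47), Col18a1 (-1.29), Lamb1 (-1.25) and Col15a1 (-1.06) were past 2-fold here and not in kept cells. These barcodes came from the same 2 tumours and are no replicate.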
